A study of Mus musculus with 6 samples.

Results

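Integrins are receptors of the cell surface, each built from 1 alpha and 1 beta subunit, that hold cells to the extracellular matrix. Inside the cell the tail of the beta subunit is bound by talin and by kindlin, which switch the receptor on, and further proteins then join it to actin and to kinases at sites called focal adhesions. In the oligodendrocyte (OL) lineage, integrins that bind laminin are known for their part in the survival, process growth and myelination of OLs. The genes of these proteins were followed in mouse primary OL precursor cells (mOPCs) after knockdown of Qk, which encodes the RNA-binding Qki proteins. Members were chosen by gene symbol: all symbols that begin with Itga or Itgb, the talins, kindlins, parvins and tensins 1 and 2, and Vcl, Ptk2, Pxn, Ilk, Zyx, Bcar1 and Src. This took 47 of the 23038 genes listed. Of these, 18 encode alpha subunits, 9 encode beta subunits and 16 encode proteins of the cytoplasmic side. The remaining 4 only share the start of their name: Itgb1bp1 encodes a protein that binds the beta1 tail, Itgb1bp2 a muscle protein, Itgb3bp a centromere protein and Itgbl1 a secreted protein that resembles a beta subunit. No row carried the symbol Tns2, whose row is listed under the older symbol Tenc1 and was not taken.

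The mOPCs came from mouse embryos at day E14.5 by immunopanning, a capture of cells on antibody-coated dishes, and were collected 72 h after transfection. The 3 libraries called siNC came from cells given control siRNA, and the 3 called siQk from cells given siRNA against Qk, for which 3 different siRNAs were used. Which siRNA each siQk library received, and the mouse strain, are not given in the sources used here, and the labels call the samples of each group biological replicates. Library totals ranged from 58166490 to 141045937 tags, the authors' estimated counts. Levels are given as the deposited RPKM (tags per kilobase of exon, scaled to the library total), so that genes can be compared per length. They do not hold the normalization factors of the fits (TMM), which were 0.899 to 0.987 in siNC and 1.04 to 1.07 in siQk. Groups that overlap in RPKM can therefore lie apart once these factors are applied, and groups that lie apart in RPKM can overlap. Changes are log2 fold changes of siQk over siNC with their standard error (SE), from edgeR's quasi-likelihood test on the tags. Changed means a P below 0.01 together with a false discovery rate (FDR) below 0.1, over all genes tested.

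Qk itself was at 209, 206 and 163 RPKM in siNC replicates 1, 2 and 3, and at 51.3, 76.6 and 36.2 RPKM in siQk replicates 1, 2 and 3 (log2 fold change -1.98, SE 0.28, edgeR FDR 0.00311). The labelled cell type was checked against marker genes. Of 7 markers of precursors, 3 were higher in siQk, 1 was lower and 3 were not called. Their summed level was 927 to 970 RPKM in siNC and 1050.1 to 1255 RPKM in siQk. These sums are RPKM without the TMM factors, on which the gap between the groups depends. Of 7 markers of differentiated OLs, 6 were lower in siQk and none was higher, and their sum was 2473 to 4723 RPKM in siNC and 997 to 1640.4 RPKM in siQk. Astrocyte markers summed to 84.1 to 135 RPKM in siNC and 20.8 to 24.9 RPKM in siQk, with 3 of 5 lower. Neuron markers summed to 100.1 to 170 RPKM in siNC and 74.9 to 114 RPKM in siQk, most of it Tubb3, which was not called, and 1 of the 5, Snap25, was higher in siQk (log2 fold change 2.64, SE 0.32, edgeR FDR 0.00211). These are bulk libraries, in which fewer cells of a type and less RNA per cell cannot be told apart. Snap25 was thus higher, and P2ry12, a microglia marker given below, was lower. Differentiated OL and astrocyte markers were mostly lower, in the same comparison as the integrin genes described next. The part of these markers in those results was not tested. Fibroblast markers did not exceed a sum of 0.192 RPKM in any library. Endothelial and mural markers summed to 2.81 to 5.09 RPKM in siNC and 3.95 to 5.05 RPKM in siQk, most of it Kdr, which was not called.

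Of the 47 genes, 33 passed the filter on low counts (average logCPM over 0) and were tested. Lower in siQk were 13 of them, and 1, Itga9, was higher. The 14 changed genes made up 42.4% of those tested, where 31.0% of all 12505 tested genes were changed, and among all of them 17.2% were lower and 13.8% were higher. The median log2 fold change was -0.20 over the 33 genes and 0.01 over all tested genes. Without TMM factors, on library size only, these medians were -0.04 and 0.16, and 9 of the 33 genes were lower and 2 higher. No gene among the 14 turned its direction under the 15 alternative fits. RPKM ranges of the groups did not overlap for 12 of the 33 genes on the lower side, against 16.4% of all tested genes, and for 5 on the higher side, against 41.9% (either side, 58.3% of all tested genes). Itgb1, Itgb8, Itga2b, Fermt2, Parvb and Bcar1 were called under each of the 15 alternative fits, and Itga2 under the 13 in which it was tested. Itga2 was not tested without siNC replicate 2, nor with the filter at an average logCPM over 1.

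**Figure D1:**
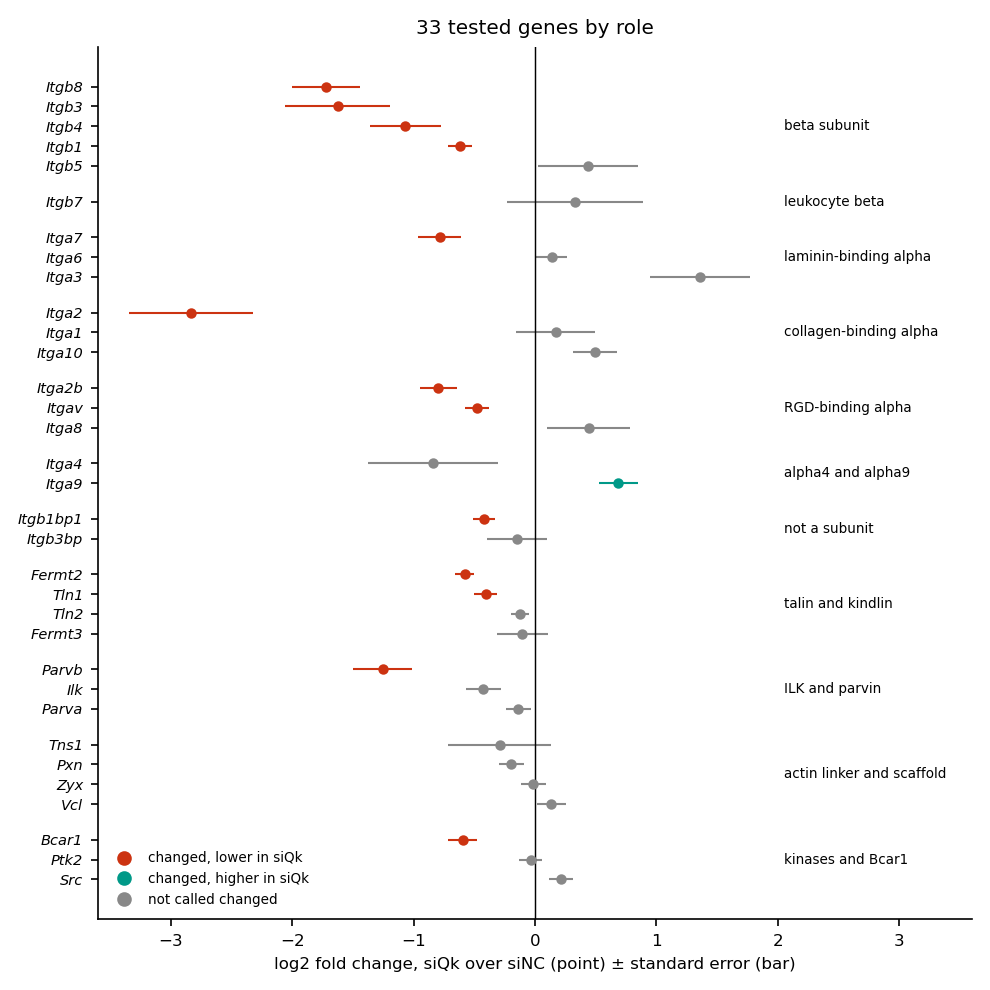
Log2 fold changes of siQk over siNC (horizontal axis) with their standard errors (bars) for the 33 tested genes, grouped by role; red marks genes called lower, green the 1 gene called higher and grey those not called. Changed genes lie mostly to the left of 0, from -2.83 for Itga2 to -0.41 for Tln1, with Itga9 alone among the changed genes on the right at 0.69.

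Among the beta subunits, 4 of 6 tested genes were lower and none was higher. Itgb1 (Entrez gene 16412; mm10 chromosome 8, 128685654 to 128733200, plus strand) encodes beta1, the partner of most alpha subunits, and was by far the most abundant subunit. It was at 196, 243 and 227 RPKM in siNC and at 171, 169 and 143 RPKM in siQk. All siQk libraries lay below all siNC libraries, and by the fitted fold change 65.2% of the siNC level remained (log2 fold change -0.62, SE 0.10, edgeR FDR 0.00465). Itgb8 (chromosome 12, 119158022 to 119238802, minus strand) encodes the partner of alphav that takes part in the activation of latent TGF-beta. Its RPKM was 31.6, 59.2 and 27.9 in siNC and 15.0, 12.6 and 12.4 in siQk. The siNC libraries were spread widely, with replicate 2 the highest, while the siQk libraries lay close together, and the log2 fold change was -1.72 (SE 0.28, edgeR FDR 0.00517).

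Itgb3 and Itgb4 changed at low levels. Itgb3, whose product pairs with alphav and alphaIIb, was at 0.804, 1.61 and 0.718 RPKM in siNC and at 0.426, 0.197 and 0.494 RPKM in siQk (log2 fold change -1.63, SE 0.43, edgeR FDR 0.0267). Its call was lost without siNC replicate 1 (-1.75) or 2 (-1.18) and without siQk replicate 1 (-1.73), 2 (-1.32) or 3 (-1.88). Itgb4, whose product pairs with alpha6, was at 0.422, 0.588 and 0.304 RPKM in siNC and at 0.220, 0.188 and 0.285 RPKM in siQk (log2 fold change -1.07, SE 0.29, edgeR FDR 0.0287). This call was lost on library size only (-0.92), without siNC replicate 1 (-1.06) or 2 (-0.81) and without siQk replicate 1 (-1.03) or 2 (-0.94). Groups overlapped for Itgb5, another partner of alphav, which had 0.796, 0.772 and 0.321 RPKM in siNC against 0.919, 0.663 and 1.25 RPKM in siQk and was not called (log2 fold change 0.44, SE 0.41). Itgb7 was at 0.520 to 1.79 RPKM in siNC and 0.828 to 1.93 RPKM in siQk, also without a call, and Itgb6, Itgb2 and Itgb2l were not tested, with no library above 0.0256 RPKM.

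Among the alpha subunits, 4 of 11 tested genes were lower and 1 was higher. Of the 3 subunits of laminin receptors, 1 was lower. Itga7 (chromosome 10, 128933818 to 128958282, plus strand), had the highest level of them and was at 21.4, 28.9 and 29.5 RPKM in siNC and at 20.8, 13.3 and 17.0 RPKM in siQk. SiQk replicate 1 stood just below siNC replicate 1, and the log2 fold change was -0.78 (SE 0.18, edgeR FDR 0.0149). The Itga7 call was lost without siNC replicate 2 (-0.73) or 3 (-0.73) and without siQk replicate 3 (-0.79). Itga6, the alpha subunit often studied in OLs, was at 1.66, 2.11 and 1.58 RPKM in siNC and at 2.15, 2.22 and 2.17 RPKM in siQk, and was not called (log2 fold change 0.14, SE 0.13). Itga3 was at 0.0819, 0.320 and 0.163 RPKM in siNC and at 0.593, 0.516 and 0.518 RPKM in siQk. Every siQk library of Itga3 lay above every siNC library, yet its P of edgeR's test, at 0.0134, missed the cutoff (log2 fold change 1.36, SE 0.41, edgeR FDR 0.0397), and it was called in 6 of 14 alternative fits, namely DESeq2, the likelihood ratio test, library size only, no filter, thinning and without siNC replicate 2, at 1.37 to 1.95.

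Alpha subunits that bind the RGD motif of matrix proteins such as fibronectin and vitronectin were lower in 2 of 3 tested genes. Itgav (chromosome 2, 83724397 to 83806916, plus strand), which encodes alphav, was at 20.6, 23.1 and 19.9 RPKM in siNC and at 18.3, 15.3 and 17.1 RPKM in siQk, with groups that did not overlap (log2 fold change -0.48, SE 0.10, edgeR FDR 0.0118). On library size only it was at -0.32 and the call was lost. Itga2b, known as the platelet subunit alphaIIb, was at 0.618, 0.844 and 0.896 RPKM in siNC and at 0.467, 0.548 and 0.491 RPKM in siQk (log2 fold change -0.80, SE 0.15, edgeR FDR 0.00843). Platelet markers were near the limit beside it: Pf4, Gp9, Gp1ba and Ppbp together reached no more than 0.388 RPKM in any library. Itga8 was at 1.38 to 3.46 RPKM in siNC and 2.91 to 4.81 RPKM in siQk without a call, and Itga5, the classical fibronectin receptor subunit, was at or below 0.0329 RPKM throughout.

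The change furthest from 0 among the 33 genes belonged to Itga2, a collagen receptor subunit, from 132, 474 and 142 tags in siNC and 51, 34 and 53 tags in siQk. These correspond to 0.538, 1.01 and 0.255 RPKM in siNC and 0.0857, 0.0975 and 0.0993 RPKM in siQk. The lowest siNC library thus stood well above the highest siQk library (log2 fold change -2.83, SE 0.51, edgeR FDR 0.00729). Itga2 passed the filter on low counts through its siNC tags. Without siNC replicate 2, its highest library, it was not tested. Of the other collagen receptor subunits, Itga1 was at 2.40 to 6.31 RPKM in siNC and 3.84 to 5.80 RPKM in siQk and Itga10 at 0.269 to 0.394 RPKM in siNC and 0.474 to 0.544 RPKM in siQk, neither of them called, though Itga10 was called without siNC replicate 2 (log2 fold change 0.66). Part of the exons of Itga10 is shared with another annotated gene on the same strand, so that its tags may be split.

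Itga9, whose product binds tenascin and osteopontin, was the 1 gene of the 33 that was higher. It was at 1.88, 2.48 and 3.24 RPKM in siNC and at 4.39, 4.87 and 4.26 RPKM in siQk (log2 fold change 0.69, SE 0.16, edgeR FDR 0.0178). All siQk libraries lay above all siNC libraries, but the call was lost without siNC replicate 2 (0.66) and without siQk replicate 1 (0.70) or 2 (0.64). Its closest relative Itga4 was at 0.354, 1.89 and 0.670 RPKM in siNC and at 0.614, 0.629 and 0.557 RPKM in siQk. The siNC mean of Itga4 rested on replicate 2: the log2 fold change was -0.84 (SE 0.53) with all libraries, without a call, and 0.07 without siNC replicate 2.

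**Figure D2:**
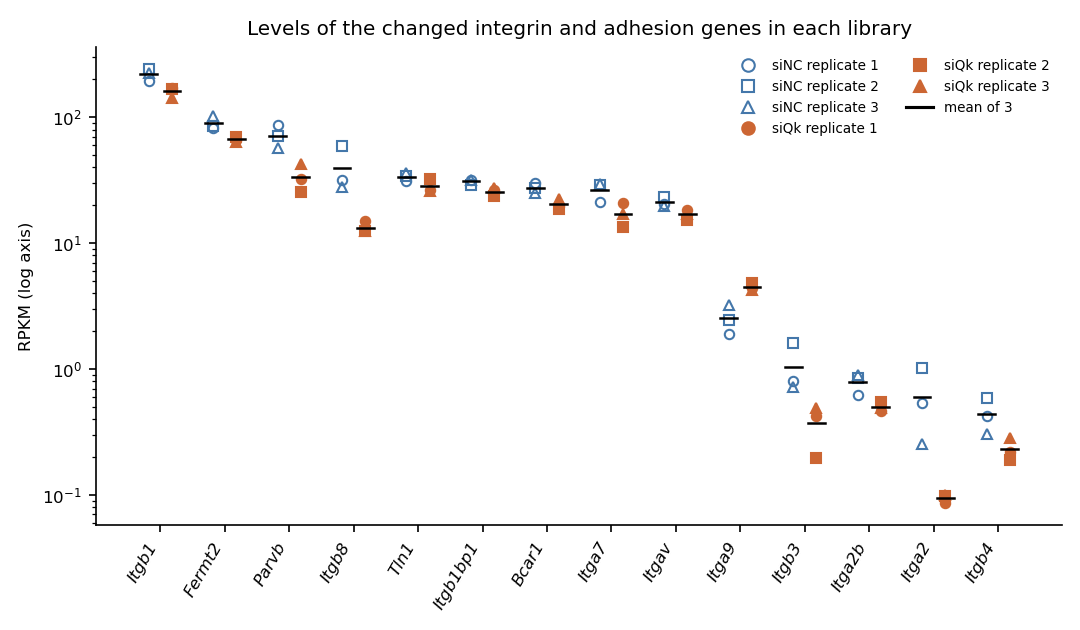
RPKM on a log axis of the 14 changed genes in each library, with open blue symbols for siNC, filled orange symbols for siQk, 1 symbol shape per replicate and a black bar at the mean of 3. For every gene except Tln1 the groups do not overlap, and Itga9 is the only gene whose siQk symbols lie above its siNC symbols.

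Summed over subunits, the libraries showed which genes made up the integrin transcripts. The 9 beta genes summed to 265 ± 37.9 RPKM in the siNC libraries (SD, n = 3) and to 177 ± 15.8 RPKM in the siQk libraries (SD, n = 3), without overlap between the groups. The 18 alpha genes summed to 62.1 ± 9.38 RPKM in the siNC libraries (SD, n = 3) and to 52.3 ± 5.92 RPKM in the siQk libraries (SD, n = 3), and here the groups overlapped. These sums are RPKM without the TMM factors, on which this overlap depends. Itgb1 gave 79.5% to 88.4% of the beta sum in siNC and 89.7% to 92.1% in siQk, where Itgb8 gave less. Itga7 gave 41.6% to 44.4% of the alpha sum in siNC and 28.5% to 35.5% in siQk, while Itgav gave 29.9% to 40.2% and 31.3% to 33.3%. Per length, Itga7 was 12.9 to 18.6 times the level of Itga6 in siNC and 6.01 to 9.67 times in siQk. These shares are descriptions and were not tested.

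**Figure D3:**
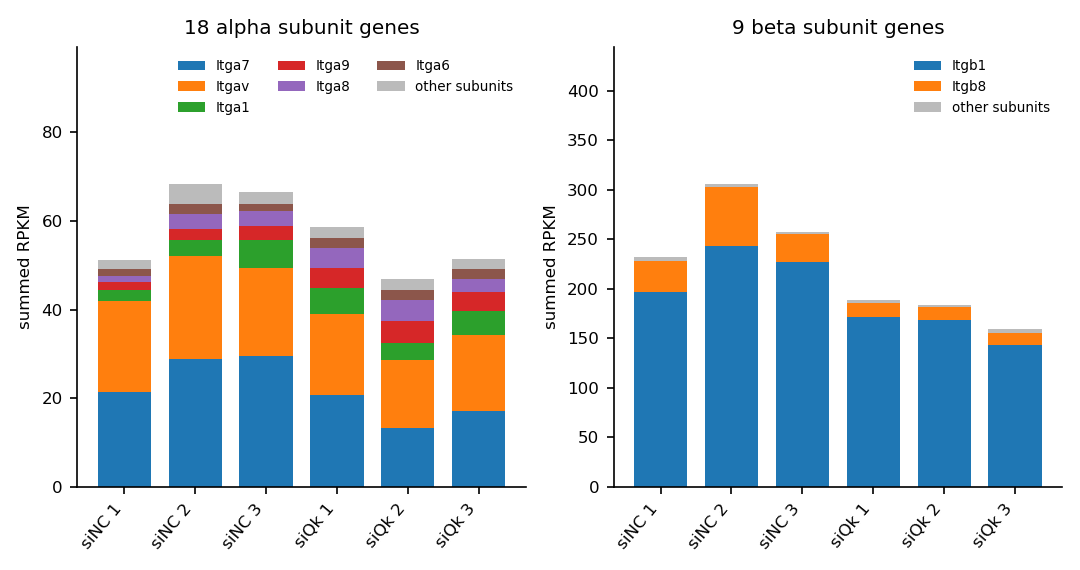
Stacked RPKM of the 18 alpha (left) and 9 beta (right) subunit genes in each of the 6 libraries, on linear axes that start at 0. Itga7 and Itgav make up most of the alpha stacks and Itgb1 most of the beta stacks, and the Itgb8 segment is thinner in each siQk library (12.4 to 15.0 RPKM) than in each siNC library (27.9 to 59.2 RPKM).

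The alpha subunits of leukocytes were near 0, unlike Itgb7, the leukocyte beta subunit given above. Itgad, Itgae, Itgal, Itgam and Itgax together summed to 0.153 to 0.243 RPKM in siNC and 0.131 to 0.155 RPKM in siQk, and none was tested. Among 8 microglia markers, C1qa and C1qb were at 0 in every library. The sum was 0.718 to 3.31 RPKM in siNC, most of it P2ry12, and 0.332 to 0.409 RPKM in siQk. Only P2ry12 of these markers was tested, and it was lower in siQk (log2 fold change -3.16, SE 0.61, edgeR FDR 0.00886). In all, 14 of the 47 genes were not tested, and the highest level of any of them in any library was 0.655 RPKM. Itgb2l was at 0 tags in all 6 libraries, Fermt1 had tags in siNC replicate 1 alone, and 9 of the 14 had no library above 0.1 RPKM. The other untested genes were Parvg, Itgb1bp2, Itgbl1, Itgal and Itgae, of which Itgbl1 was at 0.0802 to 0.340 RPKM in siNC and 0.0436 to 0.120 RPKM in siQk.

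Of the activators, talins and kindlins, 2 of 4 tested genes were lower. Fermt2 (Entrez gene 218952; chromosome 14, 45458795 to 45530118, minus strand) encodes kindlin-2, which binds the beta tail together with talin. Its RPKM was 82.6, 85.3 and 102 in siNC and 66.3, 70.4 and 63.8 in siQk. The groups did not overlap, and with a log2 fold change of -0.58 (SE 0.08, edgeR FDR 0.00293) it had the lowest FDR of the 33 genes. The other kindlin genes were close to 0, with Fermt3 at 0.478 to 0.742 RPKM over the 6 libraries and not called. Tln1, encoding talin-1, was at 31.0, 34.0 and 36.3 RPKM in siNC and at 26.4, 32.6 and 25.9 RPKM in siQk, so that siQk replicate 2 lay within the siNC range (log2 fold change -0.41, SE 0.09, edgeR FDR 0.0174). The Tln1 call was lost on library size only (-0.26), with upper quartile factors (-0.34), without siNC replicate 2 (-0.41) or 3 (-0.38) and without siQk replicate 1 (-0.36) or 3 (-0.35). Tln2, its paralog, was at 8.08 to 8.49 RPKM in siNC and 7.94 to 9.08 RPKM in siQk, without a call (log2 fold change -0.13, SE 0.08). Itgb1bp1, whose product competes with talin for the beta1 tail, was at 32.0, 29.1 and 32.1 RPKM in siNC and at 26.3, 23.7 and 27.3 RPKM in siQk (log2 fold change -0.42, SE 0.09, edgeR FDR 0.0127). It lost the call on library size only (-0.27), and 16.9% of its exon bases overlap genes on the other strand, which the library kit does not tell apart.

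ILK is a pseudokinase that links kindlin to actin with a parvin and a PINCH protein, and of Ilk and the parvins 1 of 3 tested genes was lower. Parvb (chromosome 15, 84232043 to 84315688, plus strand), encoding beta-parvin, was at 87.0, 70.7 and 56.6 RPKM in siNC and at 32.5, 25.6 and 42.3 RPKM in siQk. The groups lay apart and 41.9% of the siNC level remained by the fitted fold change (log2 fold change -1.25, SE 0.24, edgeR FDR 0.00937). Parva, encoding alpha-parvin, was at 12.5, 11.6 and 10.6 RPKM in siNC and at 11.4, 12.6 and 11.2 RPKM in siQk and was not called (log2 fold change -0.14, SE 0.10). Per length Parvb was 5.36 to 6.95 times the level of Parva in siNC and 2.03 to 3.77 times in siQk. Ilk itself was at 170, 128 and 152 RPKM in siNC and at 126, 112 and 135 RPKM in siQk, with a siQk library above the lowest siNC library. It was not called (log2 fold change -0.42, SE 0.14, edgeR FDR 0.0552), though it was called without siNC replicate 2 (-0.54), by DESeq2 (-0.43) and by the likelihood ratio test (-0.42). Most exon bases of Ilk, 89.7%, overlap the exons of Rrp8 or Taf10 on the other strand in the annotation, and its tags are uncertain to that degree.

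Of the linkers, scaffolds and kinases of the adhesion plaque, 1 of 7 tested genes was lower and none was higher. Vcl (vinculin), Pxn (paxillin), Zyx (zyxin) and Tns1 (tensin-1) had no call among them. Vcl was at 13.8, 17.9 and 21.2 RPKM in siNC and at 20.8, 22.1 and 21.3 RPKM in siQk (log2 fold change 0.14, SE 0.12), and 25.5% of its exon bases overlap Ap3m1 on the other strand. Pxn was at 15.25, 12.97 and 14.27 RPKM in siNC and at 13.29, 13.09 and 14.91 RPKM in siQk (log2 fold change -0.20, SE 0.10). Zyx was at 9.15 to 10.9 RPKM in siNC and 10.6 to 11.4 RPKM in siQk, and Tns1 at 2.68 to 6.32 RPKM and 2.53 to 6.29 RPKM, with groups that overlapped. Ptk2, which encodes focal adhesion kinase, was at 48.6, 56.2 and 46.2 RPKM in siNC and at 53.5, 53.2 and 57.0 RPKM in siQk (log2 fold change -0.04, SE 0.09, not called). Src, the kinase that joins it, was at 14.4, 18.4 and 20.0 RPKM in siNC and at 23.4, 23.3 and 21.1 RPKM in siQk, all above siNC but not called (log2 fold change 0.21, SE 0.10). Bcar1, encoding the p130Cas scaffold that both kinases phosphorylate, was at 30.2, 27.5 and 25.2 RPKM in siNC and at 19.8, 18.8 and 22.5 RPKM in siQk. For Bcar1 the groups did not overlap (log2 fold change -0.60, SE 0.12, edgeR FDR 0.0105). Itgb3bp, the centromere gene taken by its name, was at 6.02 to 10.5 RPKM in siNC and 7.24 to 8.25 RPKM in siQk and was not called.

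Qki proteins bind RNA at ACUAAY, where Y is C or U, and this motif was looked for in 1 3'UTR per gene, the longest annotated, on the transcript strand, as ACTAAC or ACTAAT (which do not overlap each other). All 47 genes had such a 3'UTR in GENCODE M21. The motif was present in 5 of the 13 lower genes (38.5%) and in 8 of the 19 tested genes without a call (42.1%), and it was absent from the 3'UTR of Itga9. Over all 11850 tested genes with a 3'UTR it was present in 37.0%, and over the 2075 of them that were lower in siQk in 52.9%. In motifs per kilobase of 3'UTR, the lower integrin and adhesion genes had 0.325 and all tested genes 0.329. Itgb1, Itga7, Tln1 and Parvb carried none in their 3'UTR. Introns and coding sequence were not searched. The 8 motifs of the 5 lower genes are places in these 3'UTRs where the protein that was knocked down could be looked for. They are shown as 30 bases of the transcript strand, 5′ to 3′, with the motif in capitals and with coordinates of GRCm38 (mm10).
Fermt2, chr14:45459685-45459714, minus strand: gtacatatgtgcACTAACaagcacgattgt
Fermt2, chr14:45459167-45459196, minus strand: tcattttgtgtaACTAATgtacaaacacaa
Bcar1, chr8:111710495-111710524, minus strand: tccaatcatttgACTAATagtctacattta
Itgav, chr2:83803524-83803553, plus strand: tacttcgcctacACTAACgtgtgttcttag
Itga2, chr13:114835522-114835551, minus strand: cccttttatttaACTAACctgctccccttt
Itgb8, chr12:119160996-119161025, minus strand: tcactagtttgcACTAATtttaagactgac
Itgb8, chr12:119159742-119159771, minus strand: tcaagggatagcACTAATattccttcaaat
Itgb8, chr12:119158210-119158239, minus strand: aactggttgactACTAACttctcttttatg

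Fermt2 and Bcar1 held their motifs in short 3'UTRs, of 1055 and 408 bases. A motif was present in 25.3% of tested genes with a 3'UTR within 20% of the length of Fermt2, and in 12.2% of those within 20% of Bcar1. The 3 motifs of Itgb8 lay in 5095 bases, a length at which 76.4% of tested genes had at least 1. Among genes that were not called, Vcl, Src, Parva and Tns1 carried the motif as well. A match of letters does not show that the protein binds there.

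Of 95 other genes of integrin adhesion, from ligands to GTPases, 80 were tested. Of these 33 were changed, 23 lower and 10 higher, a share of 41.3% against the 31.0% of all tested genes. Without siQk replicate 1 the number changed was 19. Over all genes it was then 2478 of 12513 tested, against 3879 of 12505 with all libraries. Of 9 tested genes on a list of regulators of talin and partners of integrins, 3 were lower and 1, Sharpin, was higher. The Sharpin call was lost without siQk replicate 2 (0.29). Rap1a, a small GTPase that recruits talin to integrins, was at 163, 184 and 122 RPKM in siNC and at 66.8, 63.1 and 74.0 RPKM in siQk (log2 fold change -1.36, SE 0.17, edgeR FDR 0.00221). Rap1b was also lower, with a log2 fold change of -0.48, as was Cd151, a tetraspanin that binds laminin receptors, at -0.80. Of the partners of ILK, Rsu1 (-0.52) and Ppm1f (-0.33) were lower and the PINCH gene Lims2 was higher (0.50). The Ppm1f call was lost on library size only (-0.18), with upper quartile factors (-0.27), without siNC replicate 1 (-0.35) or 3 (-0.27) and without siQk replicate 1 (-0.29) or 3 (-0.30), and the Lims2 call without siQk replicate 1 (0.50) or 3 (0.43). Lims1, the other PINCH gene, averaged 26.3 ± 5.74 RPKM in the siNC libraries (SD, n = 3) against 21.7 ± 1.59 RPKM in the siQk libraries (SD, n = 3), and was not called, though it was without siNC replicate 3 (-0.63).

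Of 19 tested adaptors, GTPases and their regulators, 6 were lower and 2 were higher. The higher ones were Arhgef6 (0.96), with no library above 0.378 RPKM, and Hax1 (0.34). The Hax1 call was lost without siQk replicate 1 (0.32), 2 (0.36) or 3 (0.34). Of the small GTPases downstream, the 3 on this list were lower. Rhoa was at 222, 217 and 205 RPKM in siNC and at 119, 120 and 111 RPKM in siQk (log2 fold change -1.04, SE 0.08, edgeR FDR 0.000633). Rac1 had a log2 fold change of -0.60, with the call lost without siQk replicate 1 (-0.59), 2 (-0.56) or 3 (-0.65). Cdc42 had -0.33, and its call was lost on library size only (-0.18), with upper quartile factors (-0.27), without siNC replicate 1 (-0.28) or 3 (-0.32) and without siQk replicate 1 (-0.37), 2 (-0.30) or 3 (-0.33). Among the kinases and phosphatases, 5 of 13 tested genes were lower and none was higher. Yes1, a kinase of the Src family, was at 11.96, 14.28 and 12.47 RPKM in siNC and at 6.18, 6.21 and 6.05 RPKM in siQk (log2 fold change -1.22, SE 0.08, edgeR FDR 0.000399). Fyn, the Src-family kinase known for its part in myelination, was at 399, 227 and 280 RPKM in siNC and at 194, 204 and 208 RPKM in siQk, and was not called (log2 fold change -0.74, SE 0.22, edgeR FDR 0.0377), though it was called without siNC replicate 1 (-0.44) or 2 (-0.93), by DESeq2 (-0.75), by the likelihood ratio test (-0.74) and with no filter (-0.72).

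Actin linkers went both ways, with 3 of 19 tested genes higher and 4 lower. Actn1, encoding an alpha-actinin, had a log2 fold change of 0.75. Sorbs3, the gene of vinexin, was at -1.25, and this call was lost without siNC replicate 1 (-1.11) or 2 (-1.12) and without siQk replicate 1 (-1.27) or 2 (-0.99). The log2 fold change of Lpp was -1.08, and each single library left out but siNC replicate 3 took its call (-0.77 to -1.20). Ligand genes were changed in 6 of 16 tested, 3 in each direction. Lama1, a laminin chain, was at 0.244, 0.232 and 0.322 RPKM in siNC and at 0.665, 0.708 and 0.796 RPKM in siQk (log2 fold change 1.29, SE 0.16, edgeR FDR 0.00211), and Vcam1, a ligand of alpha4 integrins, was at 1.86, 2.24 and 2.29 RPKM in siNC and 0.979, 0.843 and 1.12 RPKM in siQk (log2 fold change -1.26, SE 0.15, edgeR FDR 0.00182). The most abundant ligand gene, Tnr, averaged 244 ± 56.8 RPKM over the siNC libraries (SD, n = 3) and 250 ± 4.43 RPKM over the siQk libraries (SD, n = 3), and was not called.

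**Figure D4:**
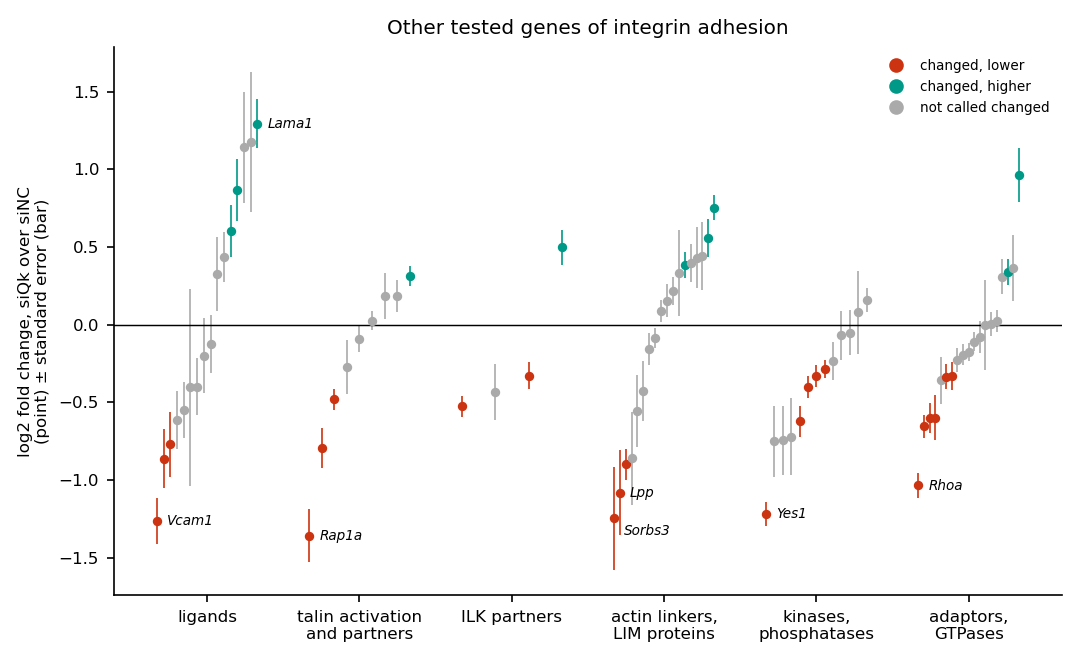
Log2 fold changes of siQk over siNC (vertical axis) with standard errors (bars) for other tested genes of integrin adhesion in 6 lists, sorted within each list, with red for called lower, green for called higher and grey for not called. Changed genes at 1 or more from 0 are named: Vcam1, Rap1a, Sorbs3, Lpp, Yes1 and Rhoa below 0 and Lama1 above it.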

How the data were processed

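Polyadenylated RNA of 3 siNC and 3 siQk mOPC libraries was sequenced by the authors as paired-end reads, aligned to mm10 with OLego and quantified with Quantas. The kit does not mark strand. Per the file headers each library holds a tag number, an estimated count without normalization, and the exon length. The RPKM deposited by the authors was recomputed from both. Tag numbers were rounded and fitted over all genes with edgeR 4.0.16 (R 4.3.3) after TMM normalization, without a replicate block, on genes with an average logCPM over 0; changed means P below 0.01 with an FDR (Benjamini-Hochberg) below 0.1. SE is the absolute log2 fold change over the square root of F. The fit was also run on simulated counts with the same spread set for every gene, which does not test the calls given here. P-values measure the spread between these libraries. With 3 libraries against 3, precision is limited by their number, and for genes with few tags by depth as well. Between libraries of a group the chi-square per degree of freedom was 36.3 or more, so each counted as 1 replicate. Named were Qk, each member called changed or with a mean over 10 RPKM, and, of the other pathway genes, those changed by at least 1. Of the 3 most abundant genes of each list not all were named, and Tns3, Ptpra and Ptpn11 were left out. Fermt3, Itga3, Itga4, Itga6, Itga8, Itga1, Itga10, Itgb5, Itgb7, Itgbl1, Cd151, Actn1 and further genes outside the rule were named after their values were seen. Members and lists were chosen with earlier results of these data known. 3'UTRs of at least 50 bases came from GENCODE M21 transcripts (GRCm38), matched by Entrez gene identifier. Coordinates of genes come from the annotation of that release, by gene symbol. Protein sequences were not used here, and 1 gene that is in the counts is not reported or plotted here. Alternatives were DESeq2 1.42.0, the likelihood ratio test, other factors, filters and cutoffs, a replicate block, thinning and each library left out.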

Additional observations from a re-analysis of the deposited data

How the results depend on the processing

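At an FDR below 0.05 combined with a log2 fold change of 1 or more in size, 946 of all genes, 6 of the members (5 lower) and 9 of the other pathway genes were changed, since that cutoff adds a limit on size. Leaving out 1 library gave 2478 to 3704 changed genes, 10 to 12 changed members (9 to 11 lower and 0 to 2 higher), and 19 to 37 changed pathway genes. The fewest changed genes of each kind came without siQk replicate 1, and the fewest lower members without siNC replicate 2. The count of members higher in siQk, 1, was 2 with DESeq2, the likelihood ratio test, library size only, no filter on low counts, thinning, and FDR below 0.05 alone, and 0 without siQk replicate 1 or 2. It was also 2 without siNC replicate 2, where Itga3 and Itga10 were called and Itga9 was not. DESeq2 called 4894 of all genes and 16 members. Of all calls, 55.4% were lower with TMM, 44.4% with upper quartile factors and 31.4% with library size only. Of the member calls, 92.9% were lower with TMM and 81.8% with library size only.

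Values that turned sign belonged to genes without a call. They were Ptk2 (0.025 with upper quartile factors, 0.117 with library size only), Zyx (0.049, 0.144, and 0.011 with no filter), and on library size only Parva (0.021), Itgb3bp (0.019), Tln2 (0.027) and Fermt3 (0.039). With 1 library left out, Ptk2 ranged from -0.117 to 0.037, Itga4 from -1.21 to 0.072, Tns1 from -0.71 to 0.063, Zyx from -0.095 to 0.101 (0.014 without siQk replicate 1), Itgb3bp from -0.312 to 0.207, Fermt3 from -0.242 to 0.031, Itgb7 from -0.020 to 1.15 and Itga1 from -0.074 to 0.583. Of 524 values of single members, 468 kept both their sign and their call or lack of one. Of the others, 27 kept the sign but lost the call, 11 kept the sign but gained a call, and 18 turned sign. Causes were not tested.

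Libraries that share a replicate number did not deviate together (correlation of their deviations -0.053, -0.153 and -0.340), so no pairing was assumed. In a fit that took this number as a block, 2796 genes and 11 members were changed, 10 lower and 1 higher, all 11 shared with the fit without it, and Qk had -2.03. Itgb3 (-1.60), Itgb4 (-1.04) and Itga7 (-0.80) lost their call under the block, as did the pathway genes Ppm1f (-0.33), Sorbs3 (-1.28), Arhgef7 (-0.33), Hax1 (0.34) and Sharpin (0.31). Thinning to the smallest library left 15 changed members. Dividing RPKM by the TMM factor moved 7 of 94 group means by more than their SD.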

Other observations

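Within the siQk group, the level of Qk and the levels of the lower members did not run in 1 order. Replicate 2 kept the most Qk (76.6 RPKM), yet it had the lowest RPKM of the 3 siQk libraries in 7 of the 13 lower members, among them Parvb (25.6 RPKM), Itga7 (13.3 RPKM), Itgav (15.3 RPKM) and Itgb3 (0.197 RPKM), and the highest in 3. Replicate 3, with the least Qk (36.2 RPKM), had the highest RPKM in 6 of the 13, among them Parvb (42.3 RPKM) and Bcar1 (22.5 RPKM). With 3 libraries no relation to Qk was tested, and the genes of a library share its RNA. The same ranks over all tested genes were not counted, and these RPKM do not hold the TMM factors.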
